A study of Mus musculus with 16 samples.

Results

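Of 25689 regular probes on an Illumina bead array, 185 rose in wild-type mouse testis between P15 and P21 and stayed raised to P60. The same probes were still raised in adult testis of Emi2 knockout mice. They were chosen by measured values, the authors' normalized log2 signals averaged over the 2 arrays of each group. A probe was taken when its wild-type signal rose by at least 2.5 from P15 to P21 and at P60 lay no more than 0.7 below its P21 level. Its P60 signal in knockout minus wild type also had to lie between -1 and 0.5, and its knockout signal had to rise by less than 1.5 from P21 to P60. The members are named by probe identifier and carry no gene name, because the names attached to the identifiers did not go with the signals.

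RNA came from whole testes of C57BL/6 mice in 8 groups of 2 arrays each, Emi2 knockout and wild type at each of 4 postnatal days (P15, P21, P30 and P60), 16 arrays in all. The titles and age labels give P15 for the youngest animals, although the growth protocol names another day for them. How the knockout allele was made, and whether paired arrays of a group stand for different animals, is not given in the sources used here. The p-values therefore speak only of the spread among these arrays, possibly a technical one, and the small number of arrays limits the precision.

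In the mouse testis the first wave of spermatogenesis runs nearly in step across the tubules, so the age of a young male decides which germ cells are present. Spermatocytes in meiotic prophase fill the tubules first, haploid round spermatids follow once these have divided, and elongating spermatids come later. Many genes for meiosis and for sperm parts are switched on in pachytene spermatocytes, ahead of the divisions, and others only in spermatids. Emi2, known by its gene symbol as Fbxo43, inhibits the ubiquitin ligase called the anaphase-promoting complex, whose activity ends a meiotic or mitotic division. In whole-testis RNA, fewer cells of a type and less RNA per cell cannot be told apart.

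Each array detected 13167 to 14630 regular probes (detection p under 0.05), and replicate arrays had correlations of 0.973 to 0.988 across the tested probes. The probe that the gene table names Fbxo43 was detected on every array, and its name is no more secure than the others. Its log2 signals were 10.86 and 11.15 in knockout and 11.16 and 10.86 in wild type at P15, and 9.01 and 9.57 in knockout and 8.99 and 9.62 in wild type at P21, so the genotypes overlapped at both ages. They were 8.52 and 8.94 in knockout, against 10.18 and 10.31 in wild type at P30, and 9.26 and 9.35 in knockout, against 10.45 and 10.36 in wild type at P60, with no overlap. On both P60 wild-type arrays, 36 of 79 probes named for ribosomal proteins were detected (45.6%), against 47.8% of all regular probes. The counts by cell type were 3 of 6 for spermatid names, 6 of 9 for spermatocyte names, 2 of 3 for spermatogonia, 2 of 4 for Sertoli names, 2 of 5 for Leydig names, 5 of 6 for peritubular names and 7 of 9 for macrophages. The probe named Tnp1, a spermatid transition protein, had no detection on either P60 wild-type array, and the one named Prm1, a protamine, had log2 signals of 10.75 and 10.55 in P15 wild type, an age without spermatids. The tissue label could therefore not be checked by marker names, and neither could the genotype.

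Signals below are log2 values after background correction and quantile normalization, and they differ from the scale of the selection. The rule used the P15, P21 and P60 wild-type arrays and the P21 and P60 knockout arrays, so those levels describe the choice and carry no test. The 2 P15 knockout arrays and the 4 P30 arrays chose nothing. They allow 2 tests on arrays that chose no member, of whether the probes also rose in knockout testis and of whether knockout and wild type differed at P30. The 2 tests share the P30 knockout arrays. The rule had already kept only probes whose P60 knockout signal lay near a raised wild-type one, and so favoured both a rise in knockout and a small P30 difference. Neither count is therefore evidence apart from the choice of members.

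The median signal over the 185 probes was low on every P15 array, at 6.18 and 6.38 in knockout and 6.18 and 6.59 in wild type. At P21 it was 11.69 and 10.66 in knockout, against 11.93 and 11.44 in wild type. The second P21 knockout array was thus the lowest of the 4 at that age, and its replicate was higher by a median of 0.92 over the members. At P30 the medians were 11.98 and 11.81 in knockout and 11.99 and 11.98 in wild type. At P60 they were 11.78 and 11.78 in knockout and 11.98 and 12.02 in wild type. The median over all tested probes was 7.17 on each array, a value that quantile normalization holds almost fixed. Both P30 and both P60 knockout medians thus lay close to the wild-type ones, with knockout at or below wild type on each of these arrays.

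**Figure D1:**
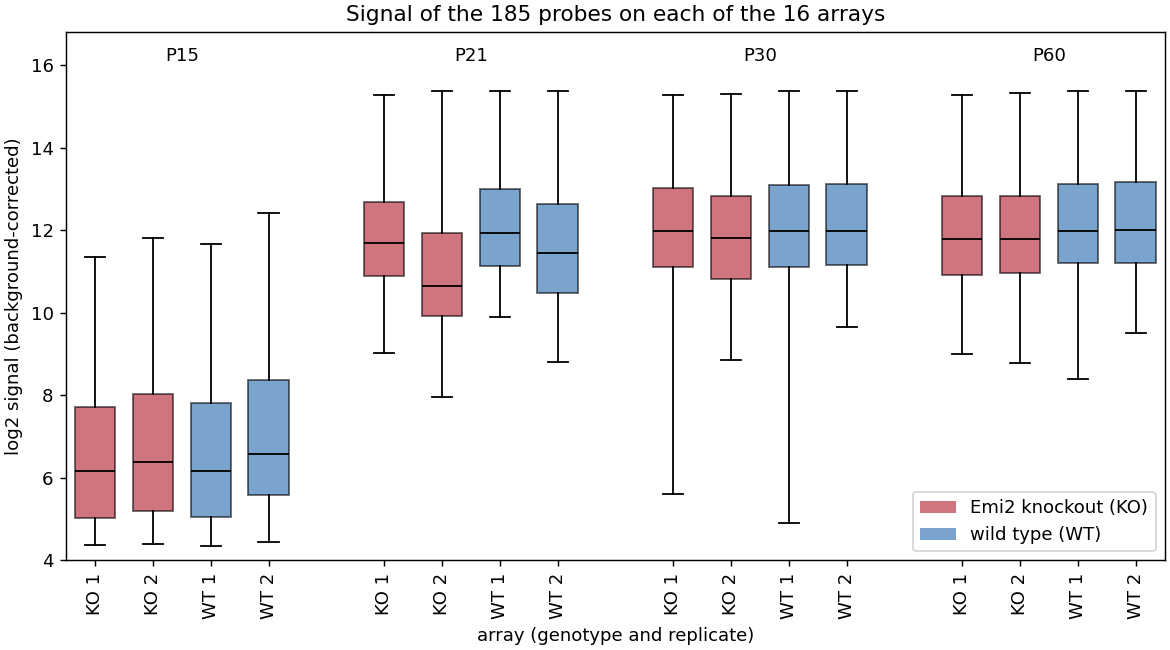
Log2 signal (vertical axis) of the 185 probes on each of the 16 arrays (horizontal axis), with knockout left of wild type at each age. Boxes show the middle 50% with the median as a line, and whiskers reach the lowest and highest probe. The medians are 6.18 to 6.59 on the P15 arrays and 11.78 to 12.02 on the P30 and P60 arrays, and the second P21 knockout array has a median of 10.66.

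The first test asked whether the probes rose in knockout testis, between arrays that had no part in choosing them. From P15 to P30, 184 of the 185 rose in knockout and 0 fell (limma, adjusted p under 0.05), each of the 184 by a log2 change of at least 1. Over all 17355 tested probes, 19.0% rose, 14.2% by at least 1, and 27.3% fell. The members' rise had a median of 5.24 on the log2 scale from the measured signals, and of 5.20 with the 40 members undetected in P15 knockout set at their lower bound, against a measured median of -0.12 for all tested probes. Over the 145 members detected on at least 1 P15 knockout array it ran from 1.96 to 8.84. Each of the 185 had a positive change at an unadjusted p under 0.05. With the 6 arrays outside the rule fitted alone, so that the spread too came from arrays that chose no member, 184 again rose. This refit does not lift the limit given above, since the rule itself had favoured a rise in knockout.

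Most of these probes were already detected at P15, and a minority started from no measurable signal. In P15 knockout testis 40 members were detected on 0 of 2 arrays, 18 on 1 and 127 on both. In P15 wild type the numbers were 31, 25 and 129. From P21 on, each of the 185 was detected on both knockout arrays, and the sole lapse in wild type was 1 probe on 1 P30 array. For the 40 probes not well above background in P15 knockout the rise is a lower bound. It counts from the lowest signal detected on each P15 knockout array, or from the probe's own signal where that was higher. The bounds, each on the mean of the 2 P30 knockout arrays, ran from at least 9.08-fold to at least 466-fold, with a median of 77.2. Where a p-value stands beside such a bound below, it belongs to the measured log2 change and does not test the bound.

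Members undetected on both P15 knockout arrays had a median P30 signal of 11.40 in knockout and 11.63 in wild type. Members detected on both had a median of 12.15 in knockout and 12.20 in wild type.

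**Figure D2:**
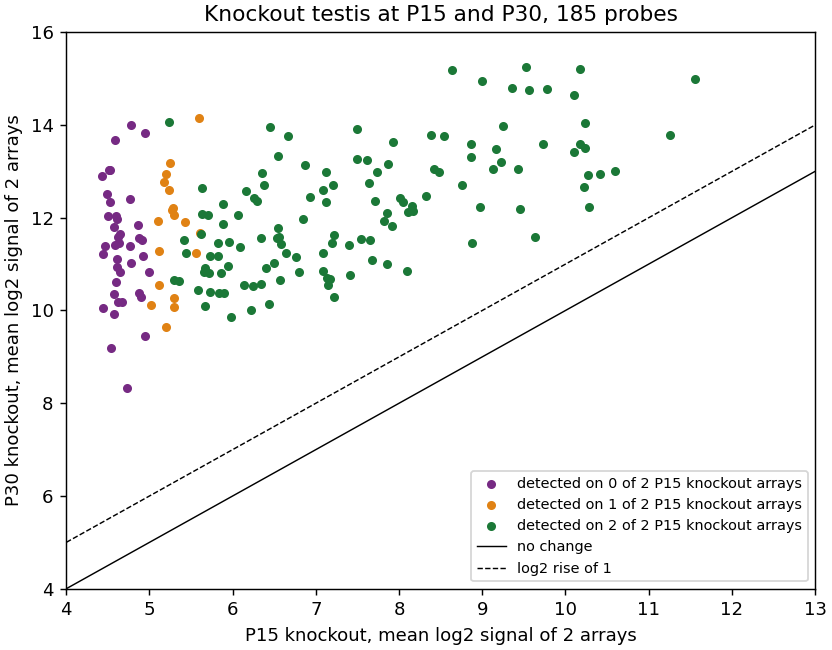
Mean log2 signal of 2 knockout arrays at P30 (vertical axis) against P15 (horizontal axis), 1 point per probe, coloured by how many of the 2 P15 knockout arrays detected it. The solid line marks no change and the dashed line a log2 rise of 1, and all 185 points lie above the dashed line, including ILMN_1236455 at 8.32, the lowest in P30 knockout.

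The largest rises ended among bright probes. ILMN_2999755 had signals of 14.17 and 13.82 in P30 knockout, against 4.73 and 4.84 in P15 knockout, and stood at 14.36 and 14.36 in P30 wild type. It was not well above background on the P15 knockout arrays and was at least 466-fold higher at P30 (limma adjusted p = 4.94e-10). ILMN_2744399 stood at 13.84 and 13.80 in P30 knockout and at 4.88 and 5.02 in P15 knockout, where it was not detected. In P30 wild type it had 13.57 and 13.95. Its rise was at least 412-fold (limma adjusted p = 1.42e-10), and the P30 genotypes overlapped.

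ILMN_2611098 was detected on 0 of 4 P15 arrays, and it is 1 of 25 members that were undetected on all P15 arrays and detected on all P30 arrays. It had 13.88 and 13.48 in P30 knockout, against 13.24 and 13.09 in P30 wild type. At least 374-fold separated P30 from P15 knockout (limma adjusted p = 1.66e-10), and here both P30 knockout arrays lay above both wild-type arrays. ILMN_3139668, ILMN_3133085 and ILMN_1215120 belong to the same class, with rises of at least 239-fold, 219-fold and 167-fold (limma adjusted p = 1.7e-10, 1.7e-10 and 7.53e-09). ILMN_2659578, undetected in P15 knockout and detected on 1 of 2 P15 wild-type arrays, rose at least 238-fold (limma adjusted p = 1.51e-09).

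Other members rose as steeply from a faint start that at least 1 P15 knockout array detected. ILMN_2695228 had 14.18 and 13.96 in P30 knockout, against 5.29 and 5.17 on the P15 knockout arrays, which both detected it, a log2 change of 8.84 ± 0.28 (SE, limma adjusted p = 1.66e-10). ILMN_1223979 had 14.27 and 14.03 in P30 knockout, against 4.96 and 6.23 in P15 knockout, where 1 of the 2 arrays detected it. With the undetected array included, the measured log2 change was 8.56 (limma adjusted p = 1.22e-08). Its P15 wild-type arrays stood at 5.58 and 7.42, so the replicates of each genotype were more than 1 apart before the rise.

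The smallest rises belonged to probes that were already bright at P15. ILMN_2816271 had 12.39 and 12.09 in P30 knockout and 10.38 and 10.18 in P15 knockout (log2 change 1.96 ± 0.25, SE, limma adjusted p = 3.02e-05). ILMN_2496348 had 11.61 and 11.57 in P30 knockout and 9.34 and 9.92 in P15 knockout, again a log2 change of 1.96 (limma adjusted p = 2e-05). Those of ILMN_2933488 and ILMN_2619671 were 2.40 and 2.44 (limma adjusted p = 4.64e-06 and 1.42e-06). These 4 had a detection on each P15 array.

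ILMN_1236455 was the 1 member whose rise missed the threshold, and its replicates split at P30. The signal was 5.62 and 11.01 in P30 knockout, against 4.77 and 4.69 in P15 knockout. It was 4.91 and 10.06 in P30 wild type, against 4.65 and 4.60 in P15 wild type. The first P30 array of each genotype was therefore near background, and the second was about as bright as the P21 arrays, at 11.01 and 10.82 in knockout and 10.59 and 9.32 in wild type. Both P15 knockout arrays were below the detection threshold, so its P30 knockout mean was at least 9.08-fold higher (limma adjusted p = 0.0618). That mean joins 1 array near background to 1 bright array, so the bound does not hold for each array. Without the first P30 knockout array its log2 change was 6.28, which rests on the lone bright P30 knockout array. Without either P30 wild-type array the change stayed at 3.58, since those arrays enter only the estimate of the spread. Of all members ILMN_1236455 had the widest replicate gap in both P30 groups, 5.38 in knockout and 5.15 in wild type.

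The second test set knockout against wild type at P30, again on arrays the rule had not used. Of the 185 probes 5 were lower in knockout, 0 were higher and 180 did not pass (limma, adjusted p under 0.05). Over all tested probes 10.4% were lower and 13.1% higher. At an unadjusted p under 0.05 there were 21 lower members (11.4%) and 2 higher (1.08%), against 13.1% and 24.1% of all tested probes. With the 6 arrays outside the rule fitted alone, 7 members passed as lower (3.78%) and 0 as higher, against 9.93% and 9.73% of all tested probes, and 3 of the 7 are among the 5. The members' median difference was -0.18 on the log2 scale, with a lowest value of -1.37 and a highest of 0.83, whereas the median over all tested probes was 0.26. Relative to that shift, the members' median lay at -0.45, a size that depends on the processing. This relative median was -0.03 where the control rows set the background, a setting that also shrank the members' median knockout rise from 5.24 to 0.30. In the other settings it ran from -0.54 to -0.28. On the linear scale the P30 knockout signal was 88.2% of wild type at the median, and 114 of the 185 lay between 75% and 133%.

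Missing the threshold does not show equal levels, so the intervals matter. The 95% interval of the P30 difference lay wholly between -1 and 1 for 85 members (45.9%), against 42.4% of all tested probes. It reached -1 or beyond for 74 members (40.0%) and 1 or beyond for 29 (15.7%), against 18.5% and 39.9% of all tested probes. For those 74 probes the interval thus includes a loss of 1 log2 unit or more. Array by array, both knockout arrays lay below both wild-type arrays for 76 members (41.1%; 19.4% of all tested probes) and above them for 32 (17.3%; 44.2% of all tested probes). In the remaining 77 the genotypes overlapped.

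**Figure D3:**
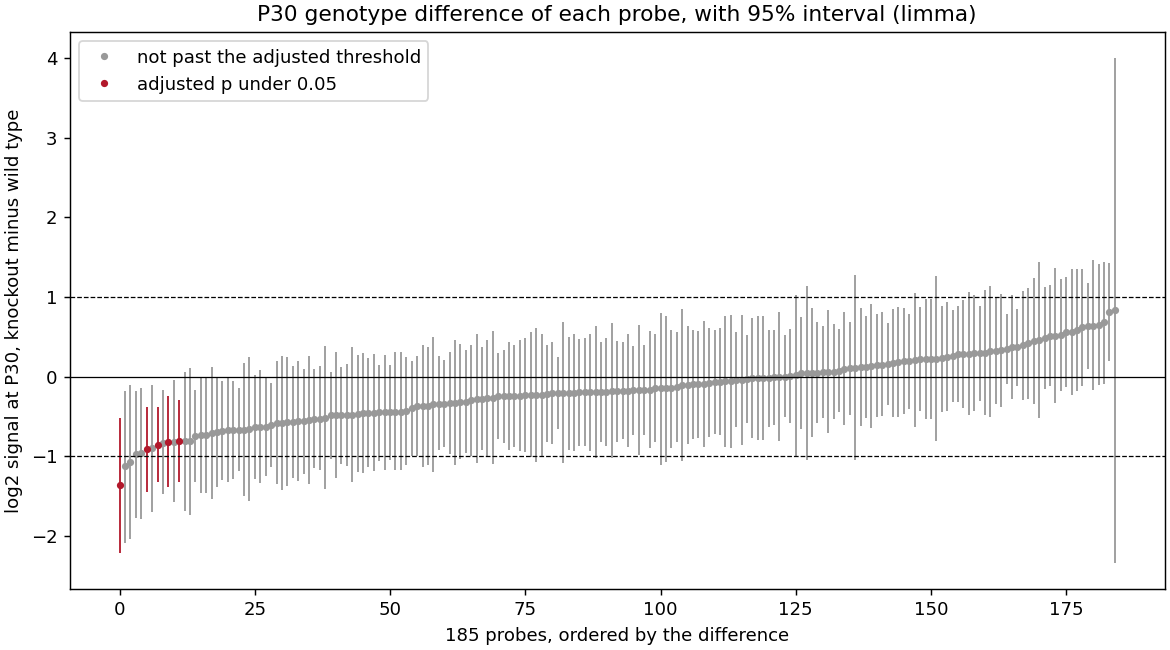
Log2 signal at P30 in knockout minus wild type (vertical axis) for each of the 185 probes, ordered by that difference, with 95% intervals from limma. Dashed lines mark -1 and 1. The 5 red probes passed the adjusted threshold, all lower in knockout, and the long interval at the right end is that of ILMN_1236455, from -2.35 to 4.01.

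The 5 probes that were lower at P30 had 38.7% to 56.9% of the wild-type signal. ILMN_2840533 had 10.90 and 11.44 in knockout, against 12.42 and 12.67 in wild type, a log2 difference of -1.37 ± 0.40 (SE, limma adjusted p = 0.0229), or 38.7% of the wild-type signal. It did not pass when the first knockout or the second wild-type array was left out (differences -1.10 and -1.24, limma adjusted p = 0.144 and 0.143). ILMN_2816271 had 12.39 and 12.09 in knockout and 13.14 and 13.17 in wild type (-0.91 ± 0.25, SE, limma adjusted p = 0.0171).

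ILMN_2619671 had 12.78 and 12.55 in knockout, against 13.48 and 13.56 in wild type (-0.86, limma adjusted p = 0.0134). ILMN_2496348 had 11.61 and 11.57 in knockout, against 12.55 and 12.26 in wild type (-0.81, limma adjusted p = 0.0241). ILMN_2681690, named after its values were seen, had 13.20 and 13.19 in knockout and 13.96 and 14.07 in wild type (-0.82, limma adjusted p = 0.038). In each of the 5 the P30 genotypes did not overlap, and each was detected on both P15 knockout arrays. Each also lay below wild type on both P60 arrays, and 4 of the 5 on both P21 arrays, although those arrays took part in the choice. Such a gap was common among members. It was seen for 103 of the 185 at P60 (55.7%, against 23.7% of all tested probes) and for 54 at P21 (29.2%, against 15.2%). Each of the 5 lost its call without at least 1 of the P30 arrays, where the lone array left in a group is assumed to vary like the other groups, while the differences stayed negative. ILMN_2816271 and ILMN_2619671 missed the threshold without the second knockout array (differences -0.76 and -0.74, limma adjusted p = 0.119 and 0.0952) and without the second wild-type array (-0.90 and -0.81, limma adjusted p = 0.0862 and 0.0781). ILMN_2496348 missed it without the first wild-type array and without either knockout array (-0.67, -0.83 and -0.79, limma adjusted p = 0.107, 0.0818 and 0.0988). For ILMN_2681690 the call was lost without any 1 of the 4, with differences from -0.88 to -0.77 and limma adjusted p from 0.0729 to 0.17.

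Some probes with differences of like size did not pass. ILMN_1214811 had 10.78 and 9.95 in knockout, against 11.55 and 11.44 in wild type, a log2 difference of -1.13 (95% interval -2.09 to -0.18, limma adjusted p = 0.0812). For ILMN_3147577, ILMN_1238995 and ILMN_3092125 the differences were -1.07, -0.98 and -0.96 (limma adjusted p = 0.101, 0.0722 and 0.0854). The arrays did not overlap in any of these 4. Which probes pass near the threshold depends on the arrays that give the spread. With the 6 arrays outside the rule fitted alone, ILMN_1214811, ILMN_1238995 and ILMN_3092125 passed (limma adjusted p = 0.0475, 0.039 and 0.0217), and ILMN_2496348 and ILMN_2681690 did not (0.0627 and 0.0526).

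At the other end no probe passed. ILMN_2599514 had 10.84 and 10.48 in knockout, against 9.59 and 10.11 in wild type (0.81, 95% interval 0.19 to 1.43, limma adjusted p = 0.057). It did pass with the authors' normalized values (limma adjusted p = 0.0111), as did ILMN_2423692 (0.0496). The differences of ILMN_2954868, ILMN_2882164, ILMN_2589651 and ILMN_2423692 were 0.68, 0.65, 0.64 and 0.63 (limma adjusted p = 0.183, 0.199, 0.233 and 0.0882). In these 5 both knockout arrays exceeded both wild-type arrays. The highest difference of all, 0.83, was that of ILMN_1236455 with its split replicates (limma adjusted p = 0.718).

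ILMN_1241149 had 15.09 and 15.30 in P30 knockout and 15.38 and 15.22 in P30 wild type, and it ranked between 1 and 12 among all regular probes on these arrays. ILMN_1219309 and ILMN_1228610 ranked between 2 and 10 and between 7 and 11. Their P30 differences were -0.11, 0.02 and 0.04 (limma adjusted p = 0.889, 0.984 and 0.963). ILMN_1248254 had 14.47 and 15.04 in knockout, against 15.24 and 15.38 in wild type (-0.56, limma adjusted p = 0.268), and ranked between 1 and 47. Quantile normalization sets such top values by rank, and the intensities of these 4 ran from 30134 to 49975 at P30, the last being the highest of any regular probe on any array. At the faint end, ILMN_2920318 had 9.51 and 8.87 in knockout and 9.48 and 9.78 in wild type (-0.44, limma adjusted p = 0.383).

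**Figure D4:**
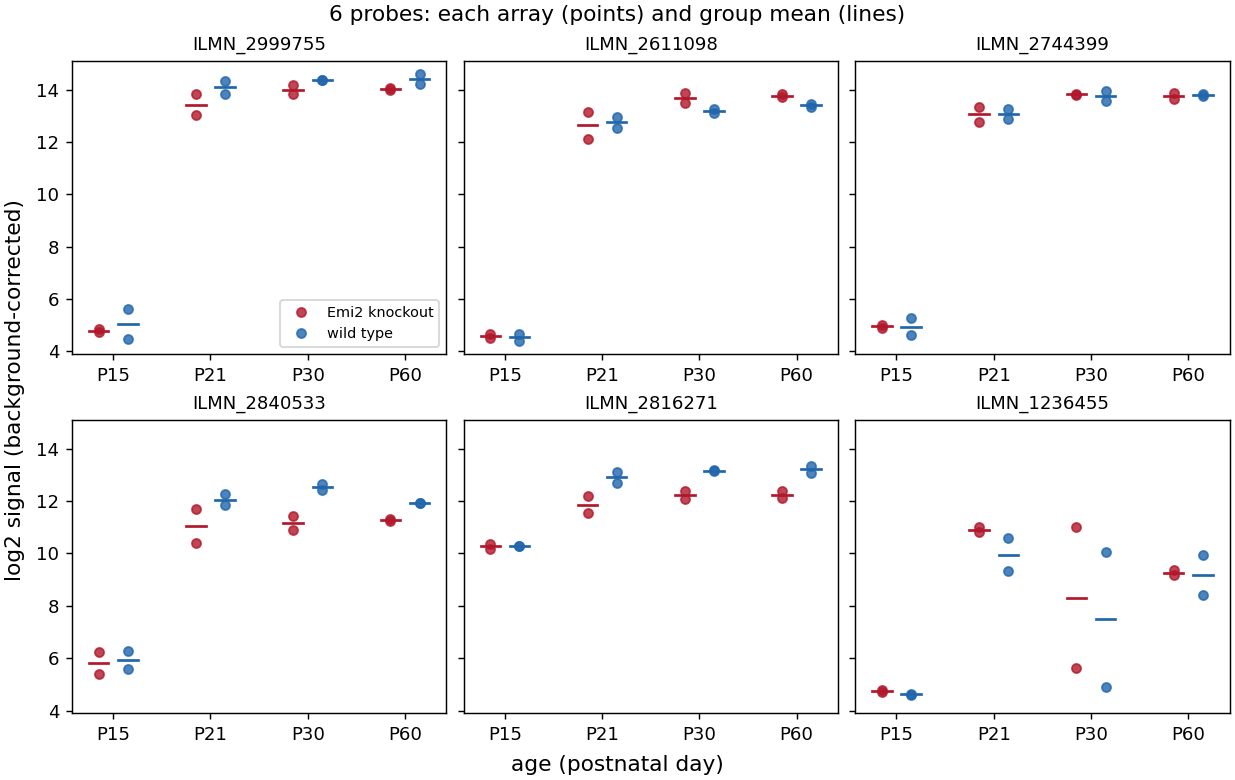
Log2 signal (vertical axis) of 6 probes at the 4 ages (horizontal axis), with knockout left of wild type, points for single arrays and lines for the group means. The upper row shows 3 of the largest rises, the lower row shows ILMN_2840533 and ILMN_2816271, which were lower in knockout at P30, and ILMN_1236455, whose P30 replicates were 5.38 apart in knockout and 5.15 in wild type.

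The order of ages could be described within each genotype, without a test where the rule had used the arrays. From P15 to P21 the members' measured signals, those undetected at P15 included, had changed by a median of 4.71 in knockout and 4.92 in wild type. From P21 to P30 they moved by a further median of 0.57 in knockout and 0.27 in wild type, and from P30 to P60 by -0.06 in knockout and 0.02 in wild type. At P21 the knockout minus wild-type median was -0.43, with 82 members lower by 0.5 or more (44.3%, against 10.8% of all tested probes). The number was 39 at P30 (21.1%, against 14.9%) and 56 at P60 (30.3%, against 19.1%). The wild-type P21 arrays picked the members for high signal and the second P21 knockout array was low for them, and the part of either in the P21 gap was not tested. At P15 the difference had a median of -0.17, with 23 members lower by 0.5 or more (12.4%, against 1.96% of all tested probes). The rule had favoured low wild-type signals at that age, a choice that by itself moves knockout minus wild type up, not down. The P15 gap was not tested.

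The 185 are the largest part of a wider group. In all, 394 probes met the wild-type part of the rule, and the rest of it split them into 185 kept, 179 lost (P60 knockout minus wild type under -1), 26 with higher P60 knockout signal (over 0.5) and 4 that were late, with a knockout rise of 1.5 or more from P21 to P60. At P30, which chose none of these groups, 5 of the 185 kept probes were lower in knockout (2.7%), against 151 of the 179 lost ones (84.4%) and 10.4% of all tested probes. The median P30 difference was -0.18 for kept probes and -2.93 for lost ones, which leaves 88.2% of the wild-type signal for kept probes and 13.1% for lost ones. From P15 to P30 in knockout, 184 of the 185 kept probes rose, against 144 of the 179 lost ones (80.4%). These groups were split on P60 arrays of the same genotypes, so the P30 values restate that split on other arrays, and no test of the kept against the lost group was made.

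**Figure D5:**
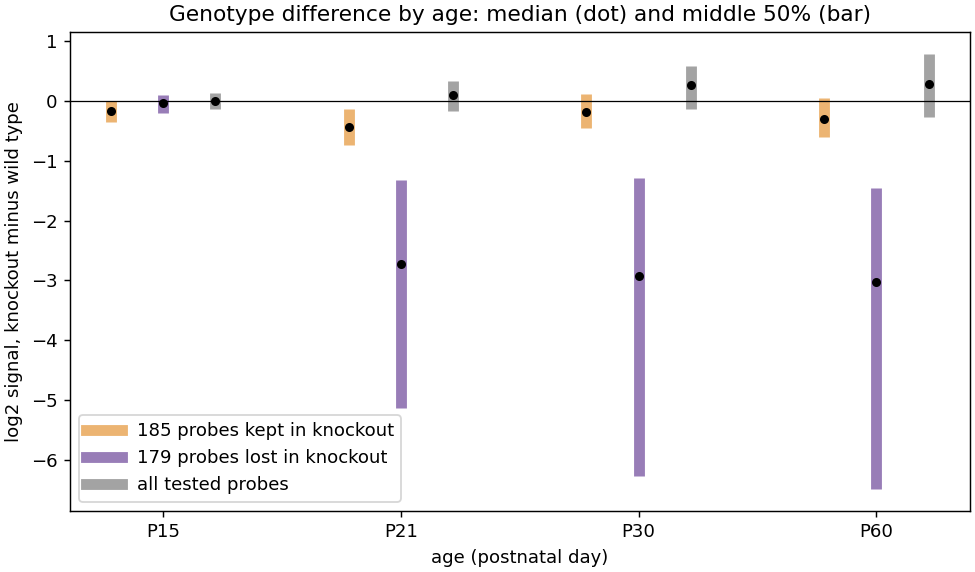
Knockout minus wild-type log2 signal (vertical axis) at each age (horizontal axis), as the median (dot) and middle 50% (bar) over probes, for the 185 kept probes, the 179 lost probes and all tested probes. At P30, the only age outside the rule for both genotypes, the medians are -0.18, -2.93 and 0.26.

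The wild-type courses of the 2 groups also differed after P21. From P21 to P30 the wild-type signal of kept probes moved by a median of 0.27, and that of lost probes by 1.02. The P30 wild-type arrays had medians of 11.99 and 11.98 for kept probes and 12.24 and 12.65 for lost ones. On the P30 knockout arrays kept probes had medians of 11.98 and 11.81, and lost ones 9.05 and 8.66. The P21 wild-type arrays had entered the rule, and the kept and lost groups were split on P60 signals that included wild type. A further wild-type rise after P21 thus favoured a place in the lost group. This is therefore a description with no test.

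The kept probes were bright on the P30 arrays. The rule favoured this, as it asked for a large wild-type rise still held at P60 and a near P60 knockout signal. In P30 wild type the lost probes had higher medians on both arrays. The P30 knockout signals of the 185 kept probes lay at a median percentile of 94.8 among tested probes. Their P30 wild-type signals lay at 95.2, and 135 and 141 of the 185 were in the top 10%. In P15 knockout the median percentile was 39.6 and 2 members were in the top 10%. The rule did not use those arrays, but its wild-type rise favoured a low start. Identifiers beginning with ILMN_1, ILMN_2 and ILMN_3 made up 25.9%, 62.7% and 11.4% of members and 26.3%, 63.5% and 10.2% of tested probes, so the members were spread over the identifier series much as the tested probes were.

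The limits of the rule cut through a continuum. On the authors' scale, ILMN_2631752 was just inside the limit on the wild-type rise at 2.504, and ILMN_2603187 just outside at 2.494. For the fall from P21 to P60 in wild type, ILMN_1236455 was inside at -0.649 and ILMN_2533387 outside at -0.726. At the lower limit of the P60 genotype difference ILMN_1238995 had -0.991 and ILMN_1245040 -1.011, and at the upper limit ILMN_1231439 had 0.497 and ILMN_1260227 0.521. For the late rise in knockout ILMN_1256614 had 1.443 and ILMN_2788546 1.525. With the rise limit at 2 there would be 279 members, and at 3 there would be 130.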

How the data were processed

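The members, comparison groups and marker lists were chosen with earlier results of these data known. Whole-testis RNA was labelled with an Illumina amplification kit, per the labels' protocols. Per the file headers, the authors' first table holds intensities that are not normalized. Its deposited detection p-value column rose with signal in regular probes, so it was read as 1 minus p. The authors' deposited log2 values equal quantile normalized log2 intensities to within 0.00276, and their column medians lay between 7.393 and 7.394. The submitters' processing notes name limma, with no version. The 822 control rows (identifier numbers 1343048 to 2038782) were left out. Intensities were corrected with normexp from the detection p-values (offset 16) and quantile normalized. The 17355 probes with detection p under 0.05 on at least 2 arrays were tested, among them all 185 members. Probes were not merged by gene symbol. limma 3.58.1 (R 4.3.3) fitted the 8 group means over 16 arrays (8 residual and 5.81 prior degrees of freedom), with Benjamini-Hochberg adjustment. The fit was tested on simulated data. Named probes have the lowest or highest P30 difference (6 each), knockout rise (6 highest, 4 lowest) or P30 signal (4 highest, 2 lowest), the 4 brightest of those undetected at P15, or lie next to a limit of the rule. The alternatives were other background, scaling and filter settings, other arrays in the fit, a replicate block and each array left out.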

Additional observations from a re-analysis of the deposited data

How the results depend on the processing

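The rise of the members from P15 to P30 in knockout was called for most of them in each setting tried. It was called for 184 or 185 of 185 in 10 of 11 settings with all arrays of the contrast, for 184 to 185 when each array was left out, and for 176 when the control rows gave the background parameters. Those rows run up to an intensity of 42728, and with them the median change in measured signal was 0.30. The P30 genotype count is less firm. The 5 lower members were 11 with the deposited log2 values and without background correction, 9 with a normexp offset of 50, 21 with control-row parameters, 2 when only the 4 P30 arrays were fitted, and 1 to 12 with each array left out. The 0 higher members were 1 with 75th percentile scaling, 1 with the offset of 50, 2 with the deposited values and without background correction, 3 with control-row parameters, and 0 to 1 with each array left out. Of all tested probes 2270 were higher at P30, 971 with only the P30 arrays and 753 to 2513 with each array left out, lowest without P30 wild type replicate 2. The cause of these shifts was not tested. The members' median P30 difference was negative in each setting, from -0.27 without P30 Emi2 knockout replicate 1 to -0.03 with control-row parameters. The median over all tested probes was 0.20 with 75th percentile scaling, 0.12 with the deposited values, 0.09 with no filter, 0.36 with the stricter filter and 0.001 with control-row parameters, and the members' median relative to it ran from -0.54 with the stricter filter to -0.03 with control-row parameters. The rule gave 296 probes on background-corrected values, 174 of them members, 279 with a rise limit of 2 and 130 with one of 3. In an alternative chosen after seeing the data, leaving out each array of the rule gave 157 to 211. With the replicate block 5 members were lower at P30 and 185 rose in knockout, and same-numbered arrays had correlations of deviations of 0.12 at P30 and -0.04 between P15 and P30 knockout, so the numbers are not shown to pair arrays. Among the named members only ILMN_1236455 changed its call under the block (adjusted p = 0.0433). The file headers name no chip, so no slide block was run. Signals near background limit the P15 levels of 40 members.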
